A study of Mus musculus with 22 samples.

Results

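The genes described here make eicosanoids and cut the lipids that feed them. They are Pla2g4a, Pla2g7, Ptgs1, Ptgs2, Ptges, Hpgds, Tbxas1, Alox5, Alox5ap and Lta4h, chosen by symbol, and they make up 10 of the 15725 genes in the expression table. All 10 had a value in each of 22 RNA sequencing libraries. Alox5, at 0.02 to 0.82 FPKM, stayed under the filter on low values that the other 9 passed, so it is given by its levels only. FPKM corrects a fragment count for gene length and for library size, so that levels can be set beside each other between genes.

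Eicosanoids are short-lived lipid signals made from arachidonic acid, a fatty acid that a phospholipase A2 cuts from membrane phospholipids. Cyclooxygenases turn it into prostaglandin H2, from which separate synthases make prostaglandin E2, prostaglandin D2 and thromboxane. 5-lipoxygenase opens the other branch, which leads to leukotrienes. Microglia, the resident macrophages of the brain, are known as a source of prostanoids after an inflammatory stimulus, and the inducible cyclooxygenase is a classic target gene of lipopolysaccharide (LPS), a bacterial cell wall component.

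All libraries came from microglia shaken off mixed glial cultures of the cortex of newborn mice of the C57BL/6 strain. Every culture received LPS (100 ng/ml, 24 h), either with a second treatment or alone, in 5 groups: LPS+CLA (CLA at 50 nM, n = 6), LPS+Baf A1 (bafilomycin A1, an inhibitor of the vacuolar proton pump, at 10 nM, n = 5), LPS+siAtg5 (50 nM siRNA against the autophagy gene Atg5, transfected 48 h ahead of the stimulus, n = 5), LPS+dNC (n = 3) and LPS alone (n = 3). The LPS+dNC cultures are taken here as transfected for 48 h as well, without siRNA against Atg5, while the remaining groups were not transfected. The abbreviations CLA and dNC are left unexplained in the labels. The protocol names control siRNAs without saying that dNC is one, and the stated comparisons set LPS+siAtg5 against LPS+dNC and the other treatments against LPS. With every culture stimulated, induction by LPS itself cannot be read from these values. Knockdown was partial: Atg5 averaged 13.1 ± 0.37 FPKM in the LPS+siAtg5 libraries and 22.3 ± 1.7 FPKM in the LPS+dNC libraries (SD, log2 change -0.73, limma adjusted p = 4.05e-12). Read counts were not used here, so the depth behind each value is unknown.

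Some libraries stood apart before any result on these genes. All LPS+dNC libraries lay below those of the other groups in 15.2% of 11070 tested genes and above them in 11.1%. The corresponding shares, below and above, were 3.22% and 4.15% for LPS+CLA, 4.8% and 2.55% for LPS+Baf A1, 2.2% and 24.4% for LPS+siAtg5 and 6.98% and 3.56% for LPS. LPS+CLA replicate 2 lay outside the range of its group mates in 66.4% of genes, against 24 to 28% for the other LPS+CLA libraries. All 10 microglia markers checked had a mean of at least 1 FPKM in each group except LPS+dNC, where Cx3cr1 was at 0.177 FPKM, and their summed level was 3040 to 3150 FPKM in LPS+CLA, 2700 to 2800 in LPS+Baf A1, 2340 to 2480 in LPS+siAtg5, 1770 to 1840 in LPS+dNC and 2460 to 2940 in LPS. Astrocyte markers, with 9 of 10 at a mean of 1 FPKM or more in LPS+siAtg5 and 5 of 10 in LPS+dNC, summed to 336 to 393 FPKM in LPS+siAtg5, 5.63 to 20.3 in LPS+dNC and 9.25 to 14.9 in LPS. The summed levels of markers of oligodendrocytes, of fibroblasts, mural and endothelial cells and of neurons were also highest in LPS+siAtg5, at 33.6 to 36.7, 47.3 to 71.3 and 45.9 to 56.1 FPKM, against 4.66 to 16.2, 6.85 to 15 and 1.67 to 11.4 FPKM in LPS+dNC. The collagen genes Col1a1 and Col1a2 carried most of the middle sum, whereas the endothelial marker Kdr was lowest in LPS+siAtg5, at 1.16 FPKM, against 2.74 FPKM in LPS+dNC, and Pecam1 was at 2.51 FPKM, against 2.59 FPKM. Of other cells that carry these genes, neutrophils had 2 markers with a value, and S100a8 was at 27.9 FPKM in LPS+siAtg5, 357 FPKM in LPS+dNC and 8.56 FPKM in LPS, while Camp was at 0.866 FPKM in LPS+siAtg5, 0.277 FPKM in LPS+dNC and 1.38 FPKM in LPS. Kit, the only mast cell marker with a value, and 3 of 5 platelet markers stayed under 1 FPKM in every library. The platelet marker Pf4 averaged 244 FPKM in LPS+CLA, 209 in LPS+Baf A1, 20.7 in LPS+siAtg5, 38.5 in LPS+dNC and 97.7 in LPS, and Ppbp averaged 2.11 FPKM in LPS+CLA, 1.14 in LPS+Baf A1 and under 1 in the other groups. The part of these differences in the results below was not tested, and in bulk samples fewer cells of a type and less RNA per cell cannot be told apart.

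The 3 treatments left marks on the pathway that differed in part. With CLA, the cytosolic phospholipase gene Pla2g4a was higher and the synthase genes Hpgds, Ptges and Tbxas1 were lower than with LPS alone, while 2 other prostaglandin E synthase genes, Ptges2 (0.36) and Ptges3 (0.53), were higher on the log2 scale. Pla2g7 (-1.04) and Ptgs1 (-0.81) were also lower with CLA. With Baf A1, Hpgds was lower by about as much as with CLA, Pla2g4a (0.33) was also higher and Tbxas1 (-0.22) also lower. Ptges and the leukotriene gene Alox5ap were higher with Baf A1. Another leukotriene gene, Lta4h, was higher in all 3 comparisons (0.48 with CLA, 0.58 with Baf A1 and 0.48 with Atg5 knockdown). With Atg5 knockdown, Ptgs2 was at 12.27 ± 0.62 FPKM (SD, n = 5), against 115.7 ± 31 FPKM in LPS+dNC (n = 3), the largest log2 change of the 9 tested genes in these 3 comparisons.

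**Figure D1:**
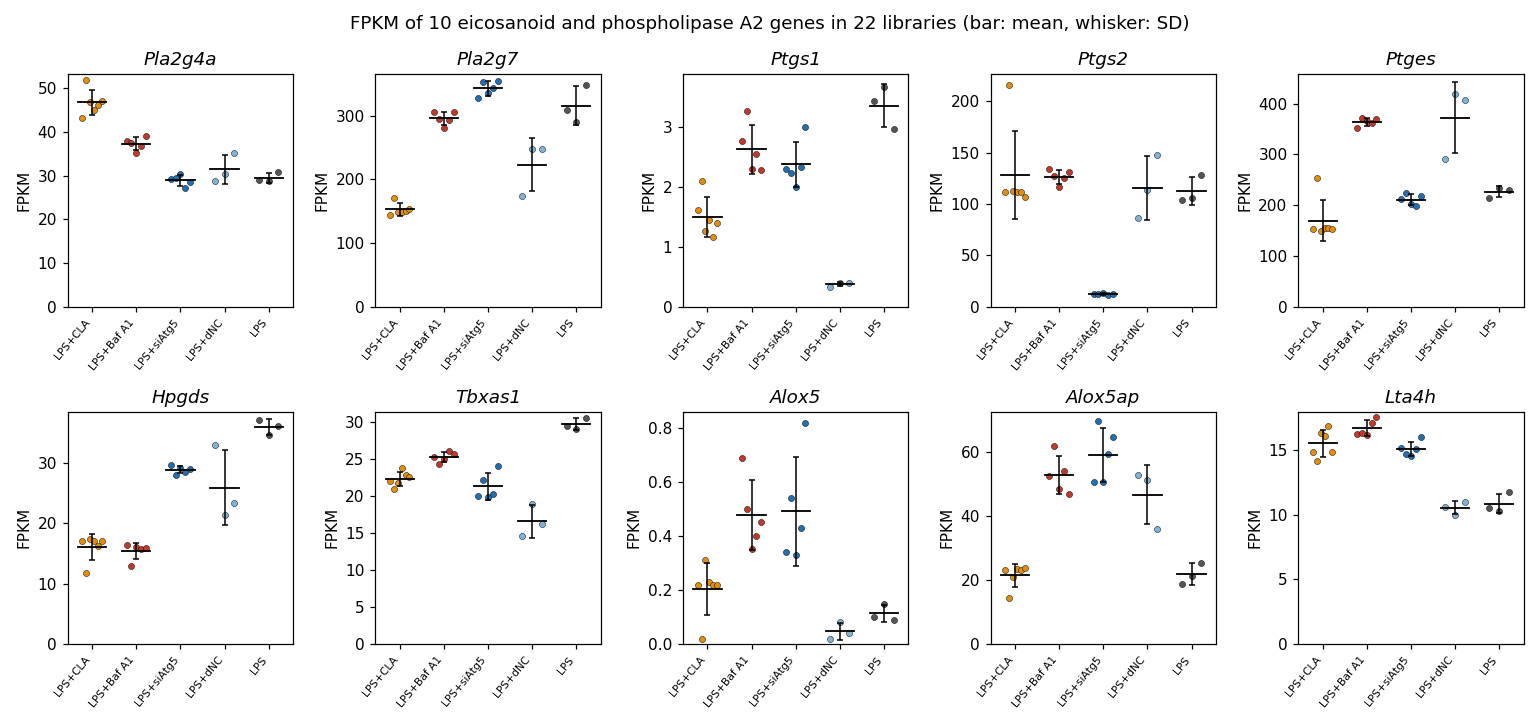
FPKM of the 10 genes (1 panel each, linear axes from 0) in the LPS+CLA, LPS+Baf A1, LPS+siAtg5, LPS+dNC and LPS groups. Points are libraries, bars are group means and whiskers are SDs. Ptgs2 was near 12 FPKM in LPS+siAtg5 alone, Hpgds was lowest in LPS+CLA and LPS+Baf A1, and Alox5ap was low in LPS+CLA and LPS.

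Pla2g4a encodes the cytosolic phospholipase A2 that prefers arachidonate. It had 43.25 to 51.97 FPKM in LPS+CLA with a median of 46.5, against 28.9, 28.7 and 30.7 FPKM in LPS. The LPS+Baf A1 libraries were at 37.9, 37.4, 35.1, 36.9 and 39.1 FPKM. Both treated groups lay wholly above LPS. Groups did not overlap in 6 of the 10 genes for LPS+CLA against LPS and in 7 for LPS+Baf A1 against LPS, where 51.6% and 52.7% of all tested genes had no overlap. Here and below, such counts out of 10 take in Alox5, which is not among the tested genes. On the log2(FPKM + 1) scale the rise of Pla2g4a was 0.65 with CLA (SE 0.058, limma adjusted p = 1.7e-09) and 0.33 with Baf A1 (SE 0.06, adjusted p = 6.09e-05). LPS+siAtg5 libraries had 29.3, 29.4, 30.3, 27.1 and 28.4 FPKM and LPS+dNC libraries 28.8, 30.3 and 35.1 FPKM, so these groups overlapped (-0.11, 95% interval -0.238 to 0.014, adjusted p = 0.0875). Pla2g4a was called as lower under 4 alternatives: median-of-ratios scaling (-0.43, adjusted p = 9.42e-06), quantile normalization (-0.26, adjusted p = 0.000739), without LPS+dNC replicate 1 (-0.17, adjusted p = 0.0194) and without the 3 libraries that lie apart (-0.17, adjusted p = 0.00594). LPS+siAtg5 did not overlap with LPS+dNC in 7 of the 10 genes and with LPS in 6, against 77% and 70.7% of all tested genes. Pla2g4a lies on chromosome 1 at 149829618 to 149961290 (minus strand, GENCODE M21 on GRCm38).

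Pla2g7 encodes the secreted lipoprotein-associated phospholipase that hydrolyses platelet-activating factor and oxidised phospholipids rather than releasing arachidonate. It was among the most abundant of the 10. LPS+CLA libraries had 143.84 to 170.93 FPKM with a median of 149.7, against 309, 290 and 349 FPKM in LPS. Each LPS+CLA library was therefore below each LPS library, and the gene fell by 1.04 (SE 0.082, adjusted p = 1.82e-10). The LPS+Baf A1 libraries, at 305, 294, 281, 294 and 305 FPKM, overlapped with LPS (-0.09, 95% interval -0.268 to 0.087, adjusted p = 0.378). LPS+siAtg5 had 328, 353, 336, 343 and 355 FPKM and LPS+dNC had 174, 247 and 248 FPKM. The gene was 0.64 higher in LPS+siAtg5 than in LPS+dNC (SE 0.084, adjusted p = 3.77e-07), and by 0.31 under median-of-ratios scaling. Against LPS, with which LPS+siAtg5 overlapped, the difference was 0.12 (adjusted p = 0.195). Pla2g7 (chromosome 17, 43568098 to 43612201, plus strand) shares 6.86% of its 50-base stretches with 1700071M16Rik on the opposite strand, and unstranded reads of the pair cannot be told apart.

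The cyclooxygenases differ in how they are controlled: Ptgs2 is the inducible isozyme and Ptgs1 the constitutive one. The RefSeq promoter windows of the pair are shown because Ptgs2 carried the largest change and Ptgs1 changed less in LPS+siAtg5. The direction for Ptgs1 depended on the comparator (log2 change 1.29 against LPS+dNC and -0.37 against LPS). Each window runs from 250 bases before to 50 after the annotated start on GRCm38.p6, at chr1:150099781-150100080 (plus strand) for Ptgs2 and chr2:36230176-36230475 (plus strand) for Ptgs1. Capitals mark matches on either strand to 7 motifs: the CRE motif TGACG, the E-box CACGTG, the C/EBP motif TTGCNNAA, the TATA box TATAAA, the GC box GGGCGG, the PU.1 core GAGGAA and the NF-kappa-B consensus.
Ptgs2: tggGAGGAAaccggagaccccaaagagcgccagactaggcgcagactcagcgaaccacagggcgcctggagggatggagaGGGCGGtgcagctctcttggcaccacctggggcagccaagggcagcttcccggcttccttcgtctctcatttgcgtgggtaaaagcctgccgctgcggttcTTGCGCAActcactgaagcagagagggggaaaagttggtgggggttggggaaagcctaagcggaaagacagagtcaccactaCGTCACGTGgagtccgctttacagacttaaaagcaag
Ptgs1: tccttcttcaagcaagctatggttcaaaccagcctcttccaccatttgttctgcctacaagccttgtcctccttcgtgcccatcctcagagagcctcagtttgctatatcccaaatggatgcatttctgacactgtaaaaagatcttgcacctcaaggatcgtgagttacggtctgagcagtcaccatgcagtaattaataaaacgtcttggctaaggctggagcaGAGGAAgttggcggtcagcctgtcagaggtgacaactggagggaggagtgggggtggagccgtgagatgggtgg
In the Ptgs2 window the C/EBP match was at -69 to -62 from the start site, the GC box at -170 to -165 and the PU.1 core at -247 to -242, while the CRE motif at 14 to 18 (reverse strand) and the E-box at 17 to 22 overlapped. The Ptgs1 window held 1 match, a PU.1 core at -24 to -19. Among 32851 promoter windows of this length, 10.8% held the C/EBP motif, 20.8% the CRE motif, 7.15% the E-box, 35.7% the GC box, 28.3% the PU.1 core, 13.6% the TATA box and 4.51% the NF-kappa-B consensus. A match describes letters, not binding.

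Ptgs2 (chromosome 1, 150100031 to 150108227, plus strand) had 11.8, 12.08, 13.21, 11.72 and 12.56 FPKM in LPS+siAtg5, against 85.9, 113 and 148 FPKM in LPS+dNC and 104, 106 and 128 FPKM in LPS. All 5 knockdown libraries were below every library of the other groups, a position that 2.2% of all tested genes had. These libraries also carried the high astrocyte markers given above, whose part in this was not tested. The gene fell by 3.1 against LPS+dNC (SE 0.18, adjusted p = 1.11e-12), which is 0.116 times on the FPKM + 1 scale, and the change was -3.09 against LPS (SE 0.18, adjusted p = 2.1e-12). With CLA or Baf A1 it was not called. LPS+CLA libraries had 107.08 to 216.37 FPKM with a median of 111.9 (0.15, 95% interval -0.215 to 0.508, adjusted p = 0.472), and LPS+Baf A1 libraries had 134, 127, 116, 125 and 131 FPKM (0.17, 95% interval -0.199 to 0.547, adjusted p = 0.424). The upper end in LPS+CLA was replicate 2, and without it the group mean was 111 FPKM and the change -0.01. Without LPS replicate 3, LPS+dNC replicate 1 and LPS+CLA replicate 2, outside the range of their group mates in 81.1%, 76.1% and 66.4% of tested genes, the Baf A1 change was 0.27 and was called (adjusted p = 0.00219). Such shares are larger in small groups: the other LPS libraries were at 60.4% and 55.8% and the other LPS+dNC libraries at 55.4% and 66.3%.

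Ptgs1 was far lower than Ptgs2, with 1.16 to 2.09 FPKM in LPS+CLA and a median of 1.42. It had 2.76, 3.26, 2.29, 2.54 and 2.27 FPKM in LPS+Baf A1, 2.3, 2.22, 2, 2.33 and 3 FPKM in LPS+siAtg5 cultures, 0.33, 0.4 and 0.39 FPKM in LPS+dNC and 3.43, 3.66 and 2.96 FPKM in LPS. The LPS+CLA group lay below LPS without overlap, and LPS+dNC lay below every other library. Ptgs1 fell by 0.81 with CLA (SE 0.11, adjusted p = 6.95e-07) and was 1.29 higher in LPS+siAtg5 than in LPS+dNC (SE 0.11, adjusted p = 3.05e-10), but 0.37 lower than in LPS (-0.37, adjusted p = 0.00416). The size of the difference to LPS+dNC ranged with the processing from 0.54 under quantile normalization to 2.37 with a pseudocount of 0.1. Its call with Baf A1 (-0.27, SE 0.11, adjusted p = 0.0419) was lost under 8 alternatives, among them without LPS replicate 1 (adjusted p = 0.109) or 2 (0.163) and without LPS+Baf A1 replicate 3 (0.0906), 4 (0.0662) or 5 (0.0927). Ptgs1 (chromosome 2, 36230426 to 36252272, plus strand) overlaps Gm43621 on the opposite strand over 2.63% of its 50-base stretches.

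The terminal synthases set which prostanoid is made. Ptges encodes the inducible microsomal prostaglandin E synthase, Hpgds the haematopoietic prostaglandin D synthase, a marker of microglia in the brain, and Tbxas1 thromboxane synthase. Their windows are at chr2:30903248-30903547 (minus strand) for Ptges and chr6:65144681-65144980 (minus strand) for Hpgds, shown because Baf A1 moved this pair in opposite directions. Capitals mark the same 7 motifs.
Ptges: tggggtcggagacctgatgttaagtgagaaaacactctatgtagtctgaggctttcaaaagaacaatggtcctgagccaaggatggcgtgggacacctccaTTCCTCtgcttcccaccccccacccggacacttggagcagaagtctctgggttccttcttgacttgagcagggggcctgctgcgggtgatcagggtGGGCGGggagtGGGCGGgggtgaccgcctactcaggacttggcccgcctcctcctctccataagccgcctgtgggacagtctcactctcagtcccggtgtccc
Hpgds: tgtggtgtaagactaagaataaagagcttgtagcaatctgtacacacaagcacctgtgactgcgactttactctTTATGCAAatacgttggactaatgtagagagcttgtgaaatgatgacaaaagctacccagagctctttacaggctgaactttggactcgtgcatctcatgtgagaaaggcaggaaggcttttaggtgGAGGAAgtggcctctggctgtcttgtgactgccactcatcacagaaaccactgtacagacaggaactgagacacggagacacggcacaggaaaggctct
The Ptges window held GC boxes at -53 to -48 and -42 to -37 and a PU.1 core at -149 to -144 on the reverse strand, and no match overlapped another. The Hpgds window held a C/EBP match at -176 to -169 on the reverse strand and a PU.1 core at -49 to -44.

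Ptges (chromosome 2, 30889471 to 30929863, minus strand) was the most abundant of the 3. It had 352, 371, 365, 361 and 370 FPKM in LPS+Baf A1, against 214, 234 and 231 FPKM in LPS, without overlap, and rose by 0.68 (SE 0.13, adjusted p = 0.000105). LPS+CLA libraries had 148.29 to 252.69 FPKM with a median of 153.7. Only LPS+CLA replicate 2 reached into or above the LPS range. The gene fell by 0.44 with CLA (SE 0.13, adjusted p = 0.00382), and by 0.57 without that replicate (-0.566, adjusted p = 1.18e-06). LPS+siAtg5 libraries had 211, 224, 202, 199 and 218 FPKM, all below the 291, 418 and 407 FPKM of LPS+dNC, and Ptges fell by 0.8 (SE 0.13, adjusted p = 7.27e-06). Against LPS, the level in LPS+siAtg5 differed by -0.1 (95% interval -0.375 to 0.171, adjusted p = 0.482).

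Hpgds (chromosome 6, 65117293 to 65144908, minus strand) had 11.76 to 17.37 FPKM in LPS+CLA with a median of 17, and 16.4, 12.9, 16, 15.7 and 15.9 FPKM in LPS+Baf A1, against 37.1, 34.6 and 36.1 FPKM in LPS. The highest value in LPS+CLA or LPS+Baf A1, 17.37 FPKM, was far below the lowest LPS value of 34.57 FPKM. The fall was 1.12 with CLA (SE 0.11, adjusted p = 7.39e-09) and 1.18 with Baf A1 (SE 0.11, adjusted p = 9.59e-09). The direct difference of LPS+CLA from LPS+Baf A1 was 0.05 (95% interval -0.145 to 0.251, adjusted p = 0.66). LPS+siAtg5 libraries had 29.7, 28, 29.2, 28.5 and 28.9 FPKM and lay between those of LPS+dNC at 33, 21.3 and 23.3 FPKM (0.18, adjusted p = 0.152). Without LPS+dNC replicate 1, the highest of the 3, the difference was 0.36 and was called (adjusted p = 0.00342).

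Tbxas1 (chromosome 6, 38875404 to 39084585, plus strand) had 20.97 to 23.7 FPKM in LPS+CLA with a median of 22.3, and 25.2, 24.3, 25, 26.1 and 25.7 FPKM in LPS+Baf A1, against 29.5, 29 and 30.6 FPKM in LPS. These 3 groups did not overlap. Tbxas1 fell by 0.4 with CLA (SE 0.065, adjusted p = 1.33e-05) and by 0.22 with Baf A1 (SE 0.067, adjusted p = 0.00638). LPS+siAtg5 had 19.9, 22.2, 19.9, 20.3 and 24.1 FPKM, above the 14.5, 18.9 and 16.2 FPKM of LPS+dNC. That difference of 0.35 (SE 0.067, adjusted p = 5.83e-05) was not called under median-of-ratios scaling (0.04, adjusted p = 0.544) or quantile normalization (0.11, adjusted p = 0.115), and against LPS the value was -0.47 (adjusted p = 1.63e-06).

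Leukotriene synthesis needs 5-lipoxygenase (Alox5), its membrane partner FLAP (Alox5ap), which presents arachidonate to it, and leukotriene A4 hydrolase (Lta4h), which makes leukotriene B4. Alox5 (chromosome 6, 116410077 to 116461178, minus strand) was close to the lower end of the scale. It had 0.02 to 0.31 FPKM in LPS+CLA, 0.69, 0.5, 0.35, 0.4 and 0.45 FPKM in LPS+Baf A1, 0.34, 0.54, 0.33, 0.43 and 0.82 FPKM in LPS+siAtg5 cultures, 0.02, 0.08 and 0.04 FPKM in LPS+dNC and 0.1, 0.15 and 0.09 FPKM in LPS. The LPS+Baf A1 and LPS+siAtg5 libraries were above all others, and the number of fragments behind such low values is unknown.

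Alox5ap (chromosome 5, 149264767 to 149288153, plus strand) was well expressed, with 52.4, 62, 48.5, 54 and 47 FPKM in LPS+Baf A1, against 18.8, 21.3 and 25.5 FPKM in LPS. The groups did not overlap, and the gene rose by 1.24 (SE 0.15, adjusted p = 5.36e-07). LPS+CLA libraries had 14.25 to 23.83 FPKM with a median of 23.1 and overlapped with LPS (-0.03, 95% interval -0.347 to 0.279, adjusted p = 0.855). LPS+siAtg5 libraries had 50.7, 69.9, 50.7, 59.4 and 64.7 FPKM and LPS+dNC libraries 52.8, 51.3 and 36.1 FPKM, again overlapping. The difference between these was 0.34 (SE 0.15, adjusted p = 0.0466), and the call was lost under 11 alternatives, among them median-of-ratios scaling (0.02, adjusted p = 0.899) and quantile normalization (0.28, adjusted p = 0.0823), and without LPS+dNC replicate 3 (0.17, adjusted p = 0.341) or LPS+siAtg5 replicate 2 (adjusted p = 0.11), 4 (0.0676) or 5 (0.0904). Alox5ap shares 6.8% of its 50-base stretches with Gm19719 on the opposite strand.

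Lta4h (chromosome 10, 93453411 to 93484875, plus strand) changed the same way in all 3 comparisons. It had 14.11 to 16.84 FPKM in LPS+CLA with a median of 15.5, and 16.2, 16.3, 16.2, 17.1 and 17.6 FPKM in LPS+Baf A1, against 10.6, 10.3 and 11.7 FPKM in LPS. LPS+siAtg5 had 15.2, 14.7, 14.5, 15.1 and 16 FPKM, against 10.6, 9.99 and 11 FPKM in LPS+dNC. Every treated library was above every library of both comparator groups. The rise was 0.48 with CLA (SE 0.056, adjusted p = 1.19e-07), 0.58 with Baf A1 (SE 0.058, adjusted p = 1.62e-08) and 0.48 with Atg5 knockdown (SE 0.058, adjusted p = 8.68e-08), where it was 0.18 under either median-of-ratios scaling or quantile normalization.

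**Figure D2:**
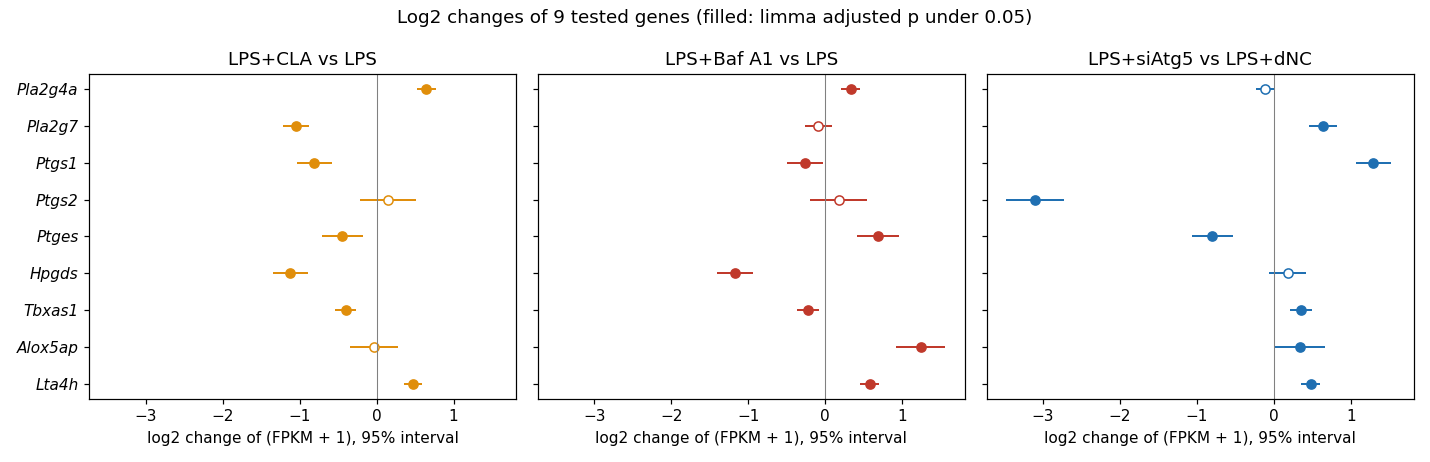
Log2 change of FPKM + 1 (x axis, same scale in each panel, lines are 95% intervals) of the 9 tested genes for LPS+CLA and LPS+Baf A1 against LPS and for LPS+siAtg5 against LPS+dNC. Filled points had a limma adjusted p under 0.05. Ptgs2 at -3.1 in the knockdown panel is the farthest point from 0, and Lta4h is filled on the right in each panel.

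Counts of calls have to be read against the background, because each comparison called many genes. With CLA, 2 of the 9 tested genes rose and 5 fell, where 40.4% of all tested genes rose and 22.6% fell (63.1% called in all). With Baf A1, 4 rose and 3 fell, against 32.7% and 25.1% of all tested genes (57.8% called in all). With Atg5 knockdown against LPS+dNC, 5 rose and 2 fell, against 59.6% and 21.6% (81.2% called in all). The median log2 change of the 9 genes was -0.4 with CLA, 0.17 with Baf A1 and 0.34 with Atg5 knockdown, and over all tested genes it was 0.09, 0.04 and 0.34 in the same order. The CLA and Baf A1 comparisons share the 3 LPS libraries.

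CLA and Baf A1 can be set against each other directly. LPS+CLA was lower than LPS+Baf A1 in 5 of the 9 genes and higher in 1, where 19% of all tested genes were lower and 35.4% higher (54.3% called in all). Alox5ap (-1.27, SE 0.13, adjusted p = 2.86e-08), Ptges (-1.13, SE 0.11, adjusted p = 1.14e-08) and Pla2g7 (-0.95, SE 0.07, adjusted p = 1.4e-10) differed most. Ptgs1 (-0.54) and Tbxas1 (-0.17) were also lower, and Pla2g4a was higher by 0.32 (SE 0.049, adjusted p = 1.07e-05). Ptgs2 (-0.03, 95% interval -0.337 to 0.282) and Lta4h (-0.1, adjusted p = 0.0804) were not called. Lta4h was called as lower under median-of-ratios scaling (-0.18), under quantile normalization (-0.19) and without LPS+CLA replicate 5 (-0.12). Without the 3 libraries that lie apart, Ptgs2 (-0.19, adjusted p = 0.00444) and Hpgds (0.14, adjusted p = 0.02) were called. Groups did not overlap in 7 of the 10 genes, the untested Alox5 among them, against 39.5% of all tested genes.

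The knockdown values depended on the comparator for most of these genes. LPS+dNC itself differed from LPS in 6 of the 9, with Ptges (0.7) and Alox5ap (1.05) higher and Pla2g7 (-0.51), Ptgs1 (-1.66), Hpgds (-0.48) and Tbxas1 (-0.81) lower, where 29% of all tested genes were higher and 28.1% lower (57.2% called in all) and 53.6% had no overlap, as did 7 of the 10 genes. Without the 3 libraries that lie apart the Pla2g7 difference was -0.27. Against LPS, LPS+siAtg5 was higher in Alox5ap (1.39, SE 0.15, adjusted p = 4.05e-08) and Lta4h (0.44) and lower in Ptgs2, Ptgs1, Hpgds (-0.31) and Tbxas1 (-0.47), where 61.2% of all tested genes were higher and 15.6% lower (76.8% called in all). Ptgs2, Alox5ap and Lta4h were thus called in the same direction against both comparators. For Alox5ap against LPS+dNC this call was lost as given above, and for Lta4h against LPS it was lost under median-of-ratios scaling (0.11, adjusted p = 0.111). Ptgs1 and Tbxas1 had opposite signs against the 2 comparators. Against LPS, the fall of Ptgs1 was larger under quantile normalization (-1.13), and those of Hpgds (-0.65) and Tbxas1 (-0.81) were larger under median-of-ratios scaling, while Pla2g4a was then called as lower (-0.37, adjusted p = 6.72e-05). Hpgds against LPS was not called without LPS replicate 1 (adjusted p = 0.0604), and Ptges was called as lower than in LPS under median-of-ratios scaling (-0.46, adjusted p = 0.00507). The median of all genes was 0.339 in LPS+siAtg5 against LPS+dNC, 0.063 under median-of-ratios scaling and -0.015 under quantile normalization. Relative to that median of 0.339, Ptgs2 stood at -3.44, Ptges at -1.14, Pla2g4a at -0.45, Hpgds at -0.16, Alox5ap at 0, Tbxas1 at 0.01, Lta4h at 0.14, Pla2g7 at 0.3 and Ptgs1 at 0.95. Hpgds therefore had opposite signs before and after this shift.

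**Figure D3:**
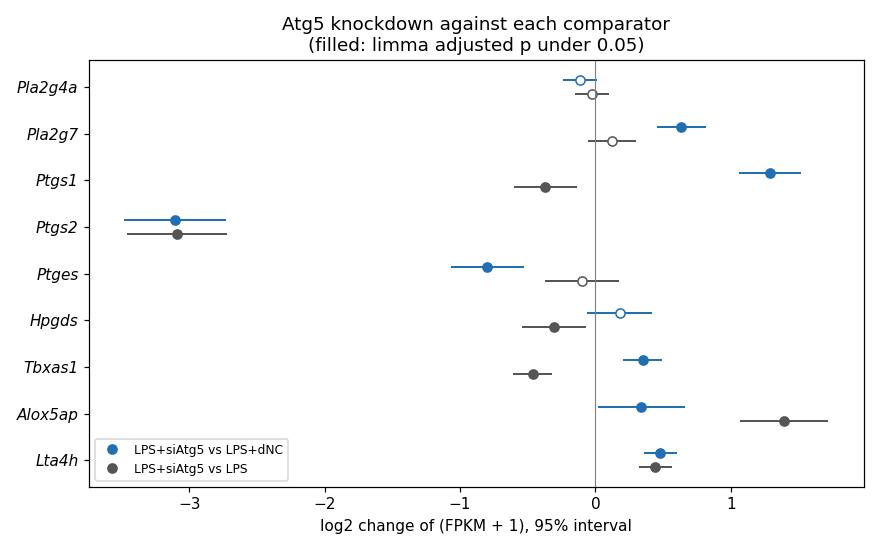
Log2 change of FPKM + 1 (x axis, lines are 95% intervals) of the 9 tested genes in LPS+siAtg5 against LPS+dNC (blue) and against LPS (grey), with filled points at a limma adjusted p under 0.05. The pair of points is close together for Ptgs2 (-3.1 and -3.09) and Lta4h (0.48 and 0.44) and on opposite sides of 0 for Ptgs1 (1.29 and -0.37) and Tbxas1 (0.35 and -0.47).

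The Baf A1 effect, taken against LPS, was also tested against the Atg5 knockdown effect, taken against LPS+dNC. The difference was called in 8 of 9 genes, against 72.7% of all tested genes (20.4% positive and 52.3% negative). It was 3.28 for Ptgs2 (SE 0.25, adjusted p = 3.22e-10), 1.48 for Ptges, 0.9 for Alox5ap and 0.44 for Pla2g4a. A positive value is a difference of effects taken against different comparators, not of levels: Alox5ap averaged 52.78 FPKM in LPS+Baf A1 and 59.06 FPKM in LPS+siAtg5. It was -1.56 for Ptgs1, -1.35 for Hpgds, -0.73 for Pla2g7 and -0.57 for Tbxas1. The size for Ptgs1 ranged from -0.86 under quantile normalization to -2.72 with a pseudocount of 0.1, and median-of-ratios scaling gave -0.46 for Pla2g7, -0.32 for Tbxas1 and 0.7 for Pla2g4a. For Lta4h the difference was 0.1 (95% interval -0.073 to 0.271, adjusted p = 0.28), but it was called under median-of-ratios scaling (0.35, adjusted p = 0.00119) and quantile normalization (0.36, adjusted p = 0.000745).

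Ratios of FPKM within a library show the balance of the branches and are given without a test. The Ptgs2 to Ptgs1 ratio was 69.1 to 104 in LPS+CLA, 39 to 57.6 in LPS+Baf A1, 4.19 to 6.61 in LPS+siAtg5, 260 to 379 in LPS+dNC and 28.9 to 43.3 in LPS. The knockdown libraries were the lowest and the LPS+dNC libraries, with their low Ptgs1, the highest. The Ptges to Hpgds ratio was 8.54 to 21.5 in LPS+CLA (median 9.04), 21.5 to 28.7 in LPS+Baf A1, 6.91 to 8.01 in LPS+siAtg5, 8.84 to 19.6 in LPS+dNC and 5.76 to 6.78 in LPS. LPS+CLA and LPS+Baf A1 thus both held more Ptges mRNA per Hpgds mRNA than LPS did, in every library. With CLA, both genes were called as lower than with LPS alone. For Ptges to Tbxas1, the ratio was 6.51 to 12.1 in LPS+CLA, 13.9 to 15.3 in LPS+Baf A1, 9.05 to 10.6 in LPS+siAtg5, 20.1 to 25.1 in LPS+dNC and 7.25 to 8.08 in LPS.

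**Figure D4:**
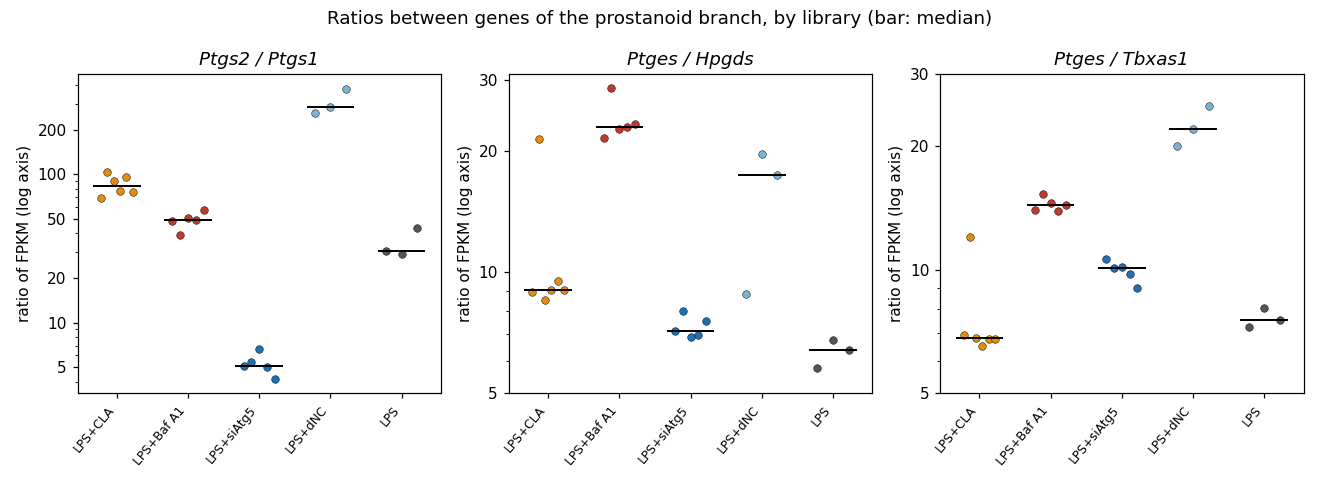
Ratios of FPKM (log axes) of Ptgs2 to Ptgs1, Ptges to Hpgds and Ptges to Tbxas1 in the 22 libraries, by group, with bars at the group medians. For Ptgs2 to Ptgs1 the LPS+siAtg5 libraries lie between 4.19 and 6.61 and the LPS+dNC libraries between 260 and 379, and in the other 2 panels LPS+CLA replicate 2 sits above its group mates.

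Other genes of the pathway were taken from 5 lists, whose counts have to be read against all tested genes. Of those, 40.4% rose and 22.6% fell with CLA, 32.7% and 25.1% with Baf A1, and 59.6% and 21.6% with Atg5 knockdown. The medians over all tested genes were 0.09, 0.04 and 0.34. Among 12 tested genes of prostanoid synthesis and breakdown, 10 rose and 0 fell with CLA, 8 rose and 0 fell with Baf A1, and 11 rose and 1 fell with Atg5 knockdown against LPS+dNC (medians 0.64, 0.61 and 0.95). Hpgd, which encodes the dehydrogenase that inactivates prostaglandins, was at 6.67 ± 0.81 FPKM in LPS+CLA and 1.4 ± 0.82 FPKM in LPS (SD, log2 change 1.72, SE 0.13, adjusted p = 1.52e-10), and at 3.96 FPKM in LPS+siAtg5, against 0.13 FPKM in LPS+dNC (2.13). The aldose reductase family genes Akr1b3 (1.24) and Akr1b8 (2.33) rose with CLA. With Baf A1, Akr1b8 (1.64), the prostaglandin reductase gene Zadh2 (1.24) and Abcc4 (0.79), a transporter that exports prostaglandins, rose. With Atg5 knockdown, Abcc4 (1.07) and Akr1b3 (0.86) rose and Ptges2, a second prostaglandin E synthase gene, fell by 1.07 against LPS+dNC, but was higher than in LPS (0.47).

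Of 6 tested receptors of eicosanoids and platelet-activating factor, 1 rose and 4 fell with CLA (median -0.51) and 1 rose and 4 fell with Baf A1 (median -0.47). Among all tested genes, 22.6% fell with CLA, 25.1% with Baf A1 and 21.6% with Atg5 knockdown. Ptafr, the receptor of platelet-activating factor, was at 11.1 ± 1.7 FPKM in LPS+CLA and 35.2 ± 2.5 FPKM in LPS (SD, log2 change -1.59, SE 0.14, adjusted p = 1.15e-09), and at 23.3 FPKM in LPS+Baf A1 (-0.57). Cysltr1, a receptor of cysteinyl leukotrienes, fell by 0.66 with CLA and with Baf A1. The prostaglandin E2 receptor genes diverged with CLA, with Ptger2 at 2.5 FPKM in LPS+CLA and 6.31 FPKM in LPS (-1.06) and Ptger4 at 8.91 FPKM in LPS+CLA and 5.1 FPKM in LPS (0.71). With Baf A1, Ptger4 fell by 0.37 and the prostacyclin receptor gene Ptgir rose by 1.15. With Atg5 knockdown 1 rose and 3 fell: Ptger4 rose by 1.46 against LPS+dNC yet differed by -0.63 from LPS, and Ptgir (-0.88), Ptger1 (-0.99) and Cysltr1 (-0.27) fell.

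Among 8 tested genes of the lipoxygenase and leukotriene list, 5 rose and 1 fell with CLA, 6 rose and 0 fell with Baf A1, and 4 rose and 1 fell with Atg5 knockdown. Of all tested genes, 40.4%, 32.7% and 59.6% rose in the same order. Abcc1, which exports leukotriene C4, was at 57.7 ± 5.9 FPKM in LPS+CLA, 62 ± 3 FPKM in LPS+Baf A1 and 26.8 ± 2.9 FPKM in LPS (SD, log2 changes 1.08 and 1.19). Cotl1, whose protein binds 5-lipoxygenase, rose by 0.48 with CLA, 0.35 with Baf A1 and 0.5 with Atg5 knockdown. Dpep2, a dipeptidase of leukotriene D4, rose with CLA (1.11) and fell with Atg5 knockdown against LPS+dNC (-0.53) but was higher than in LPS (0.5), and Mgst2 rose with Baf A1 (1.31). Mgst1 fell with CLA (-0.39) and rose with Atg5 knockdown (1.74). Ephx1, an epoxide hydrolase gene, was at 19.3 FPKM in LPS+siAtg5, against 0.753 FPKM in LPS+dNC (3.54). The astrocyte markers given above were high in the same LPS+siAtg5 libraries, and their part in this was not tested.

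Of 17 tested genes of other routes of arachidonate release and reacylation, 9 rose and 3 fell with CLA, 9 rose and 1 fell with Baf A1, and 9 rose and 5 fell with Atg5 knockdown. The shares of all tested genes that rose were 40.4%, 32.7% and 59.6%, which is also the background for the phospholipases below. Napepld, whose enzyme releases anandamide from its precursors, was at 9.66 ± 3 FPKM in LPS+CLA, 6.25 ± 0.36 FPKM in LPS+Baf A1 and 1.6 ± 0.31 FPKM in LPS (SD, log2 changes 2 and 1.48). Acsl5 rose with CLA (0.77) and Baf A1 (0.59) and fell with knockdown (-0.36), and Acsl4, an acyl-CoA synthetase that prefers arachidonate, fell with CLA (-0.18) and Baf A1 (-0.28). Acsl1 (-1.11) and Lpcat2 (-0.59), which makes platelet-activating factor, fell with CLA, and Mboat7, which puts arachidonate back into phosphatidylinositol, rose (0.64). Lpcat1 rose with Baf A1 (1.16) and fell with knockdown (-0.95), where Lpcat2 (-0.58) also fell and Acsl3 (1.98), Acsl6 (1.92) and Mgll (1.66) rose. Among 10 tested phospholipases and hydrolases of platelet-activating factor, 8 rose and 1 fell with CLA, 5 rose and 3 fell with Baf A1, and 6 rose and 3 fell with knockdown. Pafah2, a hydrolase of platelet-activating factor, was at 7.79 FPKM in LPS+CLA, 6.21 in LPS+Baf A1 and 3.23 in LPS (log2 changes 1.06 and 0.77), and at 7.07 FPKM in LPS+siAtg5, against 1.87 in LPS+dNC (1.49). Pla2g6, a calcium-independent phospholipase gene, rose with CLA (0.84) and Baf A1 (0.53), and Pafah1b3 rose with CLA (0.87) and fell with knockdown against LPS+dNC (-0.27), but differed from LPS by 0.01 (adjusted p = 0.956). Pnpla8 fell with Baf A1 (-0.29) and rose with knockdown against LPS+dNC (0.9), but differed from LPS by 0.06 (adjusted p = 0.491). Pafah1b1 fell with Baf A1 (-0.18) and rose with knockdown by 0.78 against LPS+dNC and by 0.17 against LPS. Pafah1b2 rose with Baf A1 (0.25). Pla2g5 fell with knockdown against LPS+dNC (-0.55) and differed from LPS by 0.15 (adjusted p = 0.29).

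**Figure D5:**
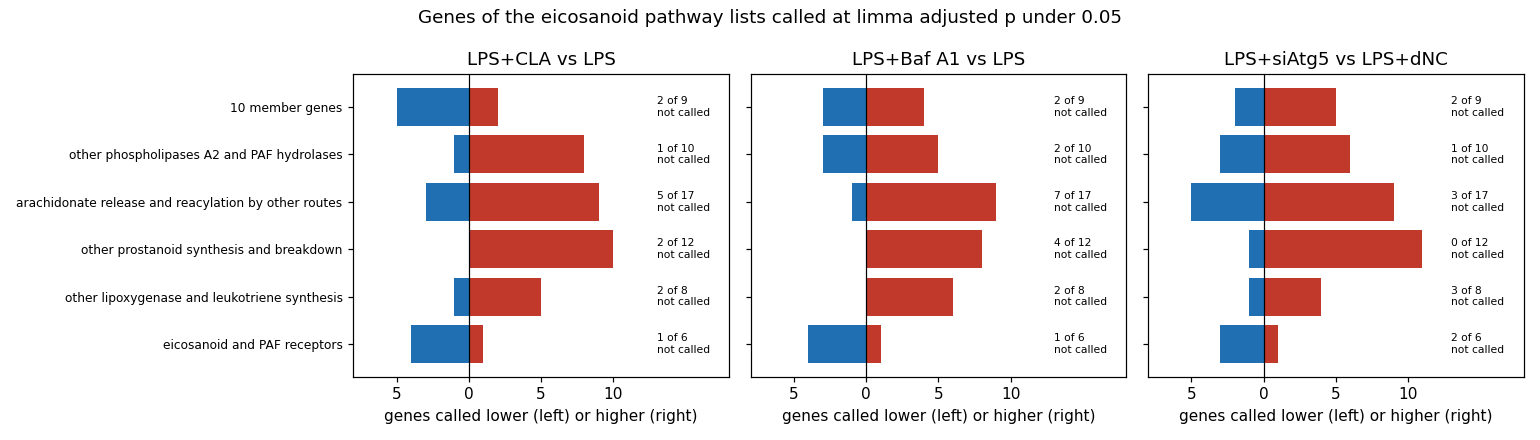
Number of tested genes called at a limma adjusted p under 0.05 as lower (left of 0, blue) or higher (right of 0, red) for the 10 member genes and 5 other lists, in LPS+CLA and LPS+Baf A1 against LPS and LPS+siAtg5 against LPS+dNC. Prostanoid synthesis and breakdown genes were called as higher in 10, 8 and 11 of 12, and receptor genes as lower in 4, 4 and 3 of 6. Of all tested genes, 40.4%, 32.7% and 59.6% were called as higher and 22.6%, 25.1% and 21.6% as lower.

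The genes with the most similar profiles were found by the root mean square difference between z-scored log2(FPKM + 1) values over the 22 libraries, among 10863 genes; the points share libraries and groups, and the measure is a description. For Ptgs2 they were Inpp5b (0.25), Aoah (0.259) and P4ha1 (0.287), where the median gene was at 1.65. Inpp5b was at 22.4 FPKM in LPS+siAtg5, 67.7 FPKM in LPS+dNC and 61.5 FPKM in LPS, so it too was lowest in the knockdown group. For Hpgds they were Rufy3 (0.232), Peli1 (0.35) and Kitl (0.36), and Rufy3 was at 12.7 FPKM in LPS+CLA, 13.1 in LPS+Baf A1 and 27.6 in LPS. Pla2g4a was closest to Pkm (0.269), Jmjd6 (0.29) and Tal2 (0.319), Pla2g7 to Ccdc86 (0.338), L3mbtl3 (0.379) and Dlk1 (0.401), and Ptges to Pon3 (0.279), Agtrap (0.317) and Lrch1 (0.332). Alox5ap was closest to Gpx4 (0.33), Parvb (0.368) and Sgsh (0.371), and Lta4h to Hacd3 (0.284) and Lipa (0.287). The matches of Ptgs1 were Rest (0.349), Tmem132a (0.354) and P2rx7 (0.368), and those of Tbxas1 were Otud5 (0.399), Abca1 (0.401) and Sestd1 (0.419).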

How the data were processed

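Expression was deposited by the authors as FPKM per gene symbol with 2 decimals. Per the file headers this is the unit of 19 columns, while those of LPS+dNC (3) carry no unit and were taken as FPKM because their values have the same range. The submitters' processing notes list StringTie 1.3.1, HISAT2, Bowtie2 2.2.8, fastp 0.18.0 and CASAVA 1.7. The build used is one of the details not given in the sources used here, as is the annotation. There were 15726 lines for 15725 symbols in the series table (Plin2 has a repeated line, of which the first was used), and the 22 single-library files were identical to their columns. Libraries were grouped by title.

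Fold changes are on the log2(FPKM + 1) scale, which understates those of low genes. The filter kept 11070 genes that reached 1 FPKM in 3 or more libraries. In limma 3.58.1 (R 4.3.3), 1 model of 5 group means took in all 22 libraries (trend and robust empirical Bayes, 17 residual degrees of freedom). It was also run on simulated data with independent noise and changes in LPS+Baf A1 only, a simpler setting than these data. P-values were Benjamini-Hochberg adjusted over all tested genes, with calls made under 0.05. Intervals are 95%. The labels do not say whether replicates were separate cultures, and p-values then cover only the spread among these libraries, possibly technical. Gene positions are from GENCODE M21, promoters from RefSeq (GRCm38.p6, 9 of the 10 genes matched).

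The members and lists were chosen with earlier results of these data known. Named were all members, Atg5, up to 3 genes per direction with the smallest adjusted p of each other list in each of the 3 main comparisons (higher group mean 1 FPKM or more), and the 3 genes closest in profile to each member, predicted genes left out; 1 gene close to Lta4h is not reported here. Alternatives were a pseudocount of 0.1, no filter or one of 5 FPKM, median-of-ratios scaling, quantile normalization, fitting only the compared groups, a replicate block, array weights, and leaving out libraries.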

Additional observations from a re-analysis of the deposited data

Results flagged for a closer look

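In 30 sets of libraries (10 genes in the 3 groups with 5 or 6 libraries), 7 held a library with a gap to its nearest mate larger than Dixon's test allows at 95%, where chance gives about 1 in 20. Of the 7, 6 were in LPS+CLA replicate 2. The test was run on these 10 genes only, so the share flagged over all genes is unknown. LPS+CLA replicate 2 lay outside the range of its group mates in 66.4% of all tested genes. That library had 216.37 FPKM of Ptgs2 (the other LPS+CLA libraries 107.08 to 113.06), 252.69 of Ptges (148.29 to 154.22) and 170.93 of Pla2g7 (143.84 to 153.02). It had 11.76 FPKM of Hpgds (16.25 to 17.37), 14.25 of Alox5ap (20.89 to 23.83) and 0.02 of Alox5 (0.22 to 0.31). The remaining one was Hpgds in LPS+Baf A1 replicate 2, at 12.94 FPKM (15.72 to 16.37).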

How the results depend on the processing

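For the 9 tested genes in 7 comparisons, 1081 of 1154 recomputed values kept their direction and their side of the threshold, 23 lost a call, 25 gained one and 25 changed sign. Of the 25, 24 were called neither as reported nor under the alternative, and the other was Pla2g7 in LPS+siAtg5 against LPS, at -0.23 under median-of-ratios scaling (adjusted p = 0.021) and 0.12 as reported. That scaling also turned Hpgds in LPS+siAtg5 against LPS+dNC to -0.136 and, as quantile normalization did, Hpgds in LPS+CLA against LPS+Baf A1 (-0.0261 and -0.0465) and Ptgs2 in LPS+dNC against LPS (-0.0192 and -0.0554). Array weights and leaving out the 3 libraries that lie apart turned Alox5ap in LPS+CLA against LPS (0.127 and 0.184) and Pla2g4a in LPS+siAtg5 against LPS (0.00717 and 0.00202), and without those libraries Lta4h in LPS+dNC against LPS was 0.00874. With single libraries left out, ranges that crossed 0 were, against LPS, -0.0129 to 0.242 for Ptgs2 and -0.133 to 0.0762 for Alox5ap in LPS+CLA, -0.0447 to 0.00202 for Pla2g4a in LPS+siAtg5, and -0.182 to 0.207 for Ptgs2 and -0.0718 to 0.0142 for Lta4h in LPS+dNC. For LPS+CLA against LPS+Baf A1 they were -0.187 to 0.015 for Ptgs2 and -0.00445 to 0.135 for Hpgds. Of counts of called genes, that scaling moved those of LPS+siAtg5 against LPS+dNC to 3 higher (5 as reported) and against LPS to 1 higher and 7 lower (2 and 4), and quantile normalization gave 3 higher against LPS+dNC. Both remove most of the shift in the median of all genes. Without the 3 libraries that lie apart, 2 genes were higher in LPS+CLA than in LPS+Baf A1 (1 as reported) and 4 were higher in LPS+dNC than in LPS (2). The causes were not tested. The shares of all genes called under these alternatives are not given, so the moved counts have no background beside them. Deviations of same-numbered libraries from their group means correlated at -0.206 to 0.196 (36 pairs, 3 over 0.1). Those of differently numbered libraries correlated at -0.234 to 0.248 (154 pairs, 16 over 0.1). With groups this small, the check cannot exclude that equal numbers share a culture, and the main model held no pairing. With a replicate block, calls of Ptgs1 with Baf A1 (-0.25, adjusted p = 0.0654) and Alox5ap with knockdown (0.3, adjusted p = 0.125) were lost, leaving 2 lower with Baf A1 and 4 higher with knockdown, and no other call of the 9 genes changed, though Ptgs2 in LPS+CLA against LPS+Baf A1 turned to 0.015. Without a filter Alox5 gave 0.4 with Baf A1 (adjusted p = 0.000749), 0.5 with knockdown (3.18e-05) and 0.11 with CLA (0.344). No read counts were used, so what depth limits is unknown.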
